A study of Homo sapiens with 108 samples.

Results

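The comparison described here sets C32TG cells collected 3 h after 2 Gy of carbon ions (C-ions) against unirradiated C32TG cells (0 Gy) of the same carbon-ion set. C32TG is an established human melanoma cell line. Each group held 3 arrays, chosen by their titles, so that 6 of the 18 C32TG arrays form the comparison. The series measured total RNA of 6 melanoma lines (C32TG, HMV-I, HMV-II, Colo679, MeWo and a uveal melanoma line) after 2 Gy of C-ions or X-rays on single-colour CodeLink arrays, with 18 arrays for each line and 3 for each line, beam and time. Further C32TG groups, of 3 arrays each, served for reference: 1 h after C-ions, 3 h after X-rays, and the unirradiated cells of the X-ray set. The 30 arrays of the other 5 lines at 3 h after C-ions and at 0 Gy were used for a comparison of lines. The labels name no genetic change or drug in any of these groups, and they give the 0 Gy arrays no time. Whether replicate arrays were made from separate cultures is not stated, so p-values cover the spread between these arrays, which may be technical.

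Carbon ions lay down their energy in dense tracks and break both DNA strands at closely spaced points. Broken DNA activates the kinases ATM and ATR, which stabilise the transcription factor p53. p53 in turn switches on genes that hold the cell cycle, restrain growth signalling, repair DNA or start cell death, together with MDM2 and PPM1D, which shut p53 off again. Through p21 and the DREAM complex, p53 also lowers genes of G2 phase and mitosis.

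All values below are quantile-normalized intensities on the log2 scale, and a change is the difference of group means on that scale. Of 54359 probes, 27636 passed the filters on missing and dim values, and they named 12379 genes, each read by its brightest probe. Across probes the 3 h arrays correlated with r = 0.997 to 0.998, the 0 Gy arrays with 0.996 to 0.997, and arrays of different groups with 0.994 to 0.995. Replicate 1 of the 0 Gy arrays had 1854 missing values, against 3642 to 4810 on the other 5 arrays, and the lowest estimated weight of the carbon-ion arrays, 0.331 against 0.838 to 1.91. The number of arrays limits the precision.

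After C-ions, 11 of the 15 genes with the largest rises belonged to the lists of known p53 targets, led by SESN1, CDKN1A, GDF15 and SESN2, and the largest falls, in PFKFB4 and PIF1, were smaller. The lists were chosen with results of these arrays in view, so this count describes the top genes and is no independent evidence. Of the probes tested, 608 rose (2.2%) and 989 fell (3.58%) in limma's test with a Benjamini-Hochberg adjusted p under 0.05, together 5.78% of the probes. Among named genes, 343 rose (2.77% of those tested) and 306 fell (2.47%). The median size of a called change was 0.36. Past a doubling, 25 probes rose and 2 fell. In 644 of the 649 called genes (5.24% of genes tested) the 3 irradiated and 3 unirradiated values did not overlap, which held for 28.2% of all genes tested.

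The balance between rises and falls depended on how the arrays were scaled, and on the unirradiated arrays. Rises made up 38.1% of the called probes after quantile normalization. They made up 75.2% of 1992 when each array was centred on its median, and 82.8% of 2599 when the deposited scaling was kept. With array weights 1802 probes rose and 1528 fell. Without replicate 1 of the 0 Gy cells, the array with the low weight, 732 rose and 485 fell, and without replicate 2, 309 rose and 930 fell. The count also rested on single arrays. It was 888 without replicate 3 of the 0 Gy cells, and 857, 712 and 765 without replicates 1, 2 and 3 of the irradiated cells.

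**Figure D1:**
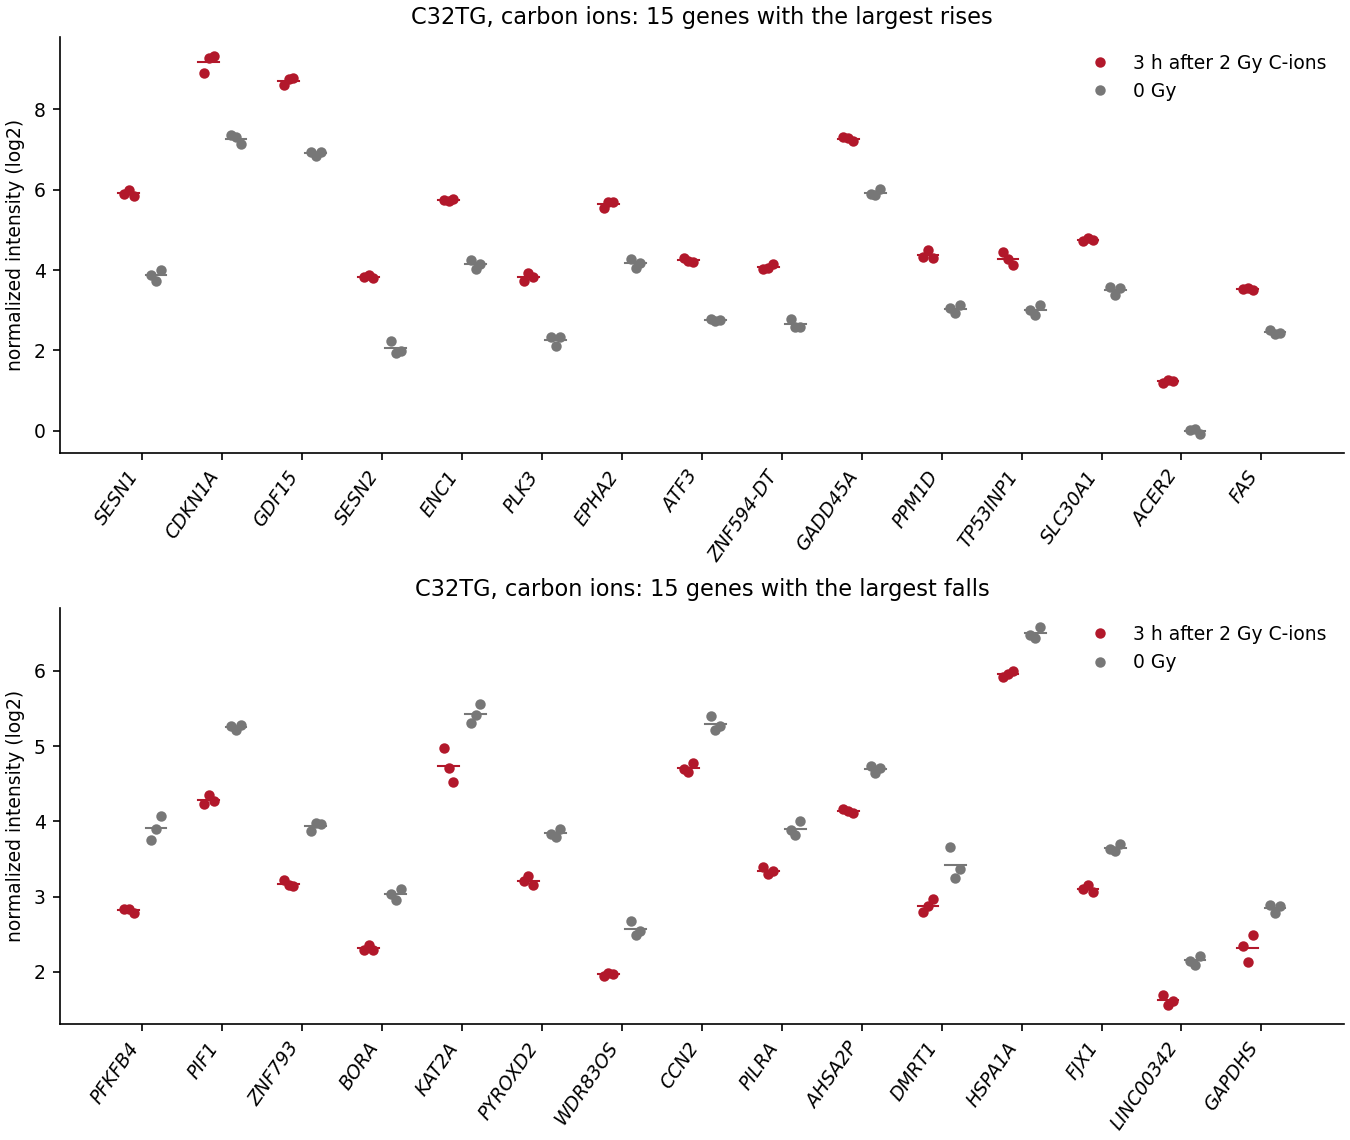
Normalized intensity (log2) on each array for the 15 genes with the largest rises (upper panel) and the 15 with the largest falls (lower panel) that passed the test and did not overlap between groups. Points are arrays, red for 3 h after 2 Gy C-ions and grey for 0 Gy, and bars are means of 3 arrays. SESN1 averaged 5.91 in irradiated and 3.87 in unirradiated cells, and PFKFB4 2.82 in irradiated and 3.91 in unirradiated cells.

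Genes that brake the cell cycle gave several of the largest rises. CDKN1A, which encodes the cyclin-dependent kinase inhibitor p21, read 8.91, 9.29 and 9.34 in irradiated cells, against 7.36, 7.30 and 7.15 in unirradiated cells, a change of 1.91 ± 0.094 (SE; limma adjusted p = 2.66e-12). Its irradiated values lay 0.20 to 0.63 below the brightest spot of their arrays, which quantile normalization sets to 9.53 on each. Whether the reading was limited at that level was not tested. The change of CDKN1A was 1.82 with median centring and 1.84 on the deposited scale. GDF15, a secreted stress cytokine, read 8.59, 8.75 and 8.79 in irradiated cells, against 6.95, 6.84 and 6.93 in unirradiated cells, a 3.49-fold rise (limma adjusted p = 1.98e-12). Both genes separated the groups by many times the spread between arrays.

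GADD45A, which interacts with p21 and PCNA and inhibits CDK1, read 7.30, 7.29 and 7.21 in irradiated cells, against 5.90, 5.87 and 6.01 in unirradiated cells. The polo-like kinase PLK3 read 3.73, 3.92 and 3.84 in irradiated cells, against 2.33, 2.11 and 2.34 in unirradiated cells. Its relative PLK2 read 6.54, 6.48 and 6.56 in irradiated cells, against 5.51, 5.39 and 5.53 in unirradiated cells. These are changes of 1.34, 1.57 and 1.05, with no overlap in any of the 3 genes (nor in 28.2% of all genes tested). INKA2, an inhibitor of the kinase PAK4, rose by 1.02, and a further probe of it by 0.59. In all, 6 of the 8 arrest genes tested rose (background 2.77%), while CCNG2 and PRDM1 changed by 0.05 and -0.09. A further, dimmer probe of PRDM1 changed by 0.81, so that gene's reading depends on the probe.

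Some stress-responsive inhibitors of the growth kinase mTORC1 rose as well, SESN1, SESN2 and DDIT4, while another sestrin gene, SESN3, changed by -0.07 and did not pass. SESN1 showed the largest change of any named gene: 5.90, 5.99 and 5.84 in irradiated cells, against 3.88, 3.73 and 4.01 in unirradiated cells, a 4.11-fold rise (log2 change 2.04 ± 0.088, SE; limma adjusted p = 4.2e-13). SESN2 read 3.82, 3.87 and 3.81 in irradiated cells, against 2.24, 1.94 and 1.99 in unirradiated cells, a 3.41-fold rise. DDIT4, which acts on the same kinase through the TSC complex, rose by 0.76 on its brighter probe, while its dimmer probe changed by -0.13. The receptor tyrosine kinase EPHA2 read 5.53, 5.70 and 5.70 in irradiated cells, against 4.27, 4.05 and 4.17 in unirradiated cells. Values of SESN1, SESN2 and EPHA2 did not overlap between groups, which held for 28.2% of all genes tested.

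Repair and nucleotide genes of the p53 lists moved less. POLH, the polymerase that copies past ultraviolet lesions, rose by 0.75, TIGAR, which lowers glycolytic flux, by 0.71, the ribonucleotide reductase subunit RRM2B by 0.60, and the damage-recognition factor XPC by 0.48. A further TIGAR probe rose by 1.38, whereas a dimmer XPC probe changed by -0.08. DDB2, the partner of XPC in recognising lesions, changed by 0.13 and did not pass. Together with SESN1, SESN2, DDIT4 and EPHA2, 8 of the 15 genes of metabolism and repair rose (background 2.77%).

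Genes of the negative feedback on p53 also rose. The phosphatase PPM1D read 4.32, 4.50 and 4.29 in irradiated cells, against 3.05, 2.92 and 3.12 in unirradiated cells, a change of 1.34. MDM2, the ubiquitin ligase of p53, read 1.86, 1.91 and 1.83 in irradiated cells, against 0.88, 0.78 and 0.80 in unirradiated cells, a 2.06-fold rise (limma adjusted p = 2.84e-08). CCNG1, which brings a phosphatase to MDM2, rose by 0.66, and the RNA-binding protein gene ZMAT3 by 0.44. MDM4 and RCHY1 changed by -0.06 and -0.04, so 4 of the 6 feedback genes tested rose (background 2.77%).

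Among genes of cell death, the response was partial. TP53INP1, which promotes autophagy and death, read 4.44, 4.29 and 4.12 in irradiated cells, against 3.01, 2.88 and 3.12 in unirradiated cells. The ceramidase gene ACER2 read 1.18, 1.27 and 1.24 in irradiated cells, against 0.03, 0.05 and -0.08 in unirradiated cells. The death receptor gene FAS read 3.53, 3.55 and 3.51 in irradiated cells, against 2.51, 2.40 and 2.43 in unirradiated cells. Their changes were 1.28, 1.23 and 1.08, and a dimmer FAS probe changed by 0.40 (limma adjusted p = 0.0863).

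The BH3-only genes PMAIP1 (NOXA) and BCL2L11 (BIM) rose by 0.77 and 0.45, and PHLDA3, an inhibitor of AKT, by 0.63, with 0.86 on a further probe. The TRAIL receptor gene TNFRSF10B and the exonuclease gene AEN each changed by 0.32 and missed the threshold (limma adjusted p = 0.052 and 0.0601). BAX, the pore-forming executor of mitochondrial death, changed by -0.10. In this list 6 of 16 genes rose (background 2.77%) and 0 fell (2.47%).

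Over all p53 roles, 24 of the 45 genes tested rose and 0 fell, against 2.77% and 2.47% of all genes. The median change of the 45 was 0.45, against 0.00054 over all 12379 genes. The 21 that did not pass changed by -0.18 to 0.32. Of 56 listed genes, 4 had no probe named here and 7 failed the filters. The count lay between 20 and 26 under every alternative run and with each of the 6 arrays left out. The lists were chosen with results of these arrays in view and are no independent evidence of a direction.

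Searching the 300 bases from 250 before to 50 after each RefSeq start for the p53 half-site, with no mismatch and on both strands, found it for 3 of the 20 risen p53 genes that had a window (PLK2, SESN1 and FAS), in 10% of their windows and in 6.63% of all 35116 windows. A match describes letters only. The stretches around it in PLK2 and SESN1 are shown because these genes rose by 1.05 and 2.04; capitals mark the half-site, which begins at -132 and -49 from the start, and sequences are RefSeq's, build GRCh38.p14, 5′ to 3′ on the gene's strand.
PLK2, chr5:58460137-58460286, minus strand: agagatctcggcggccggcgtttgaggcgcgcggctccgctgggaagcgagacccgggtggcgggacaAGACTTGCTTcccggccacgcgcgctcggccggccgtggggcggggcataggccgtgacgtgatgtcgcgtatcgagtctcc
SESN1, chr6:109008939-109009088, minus strand: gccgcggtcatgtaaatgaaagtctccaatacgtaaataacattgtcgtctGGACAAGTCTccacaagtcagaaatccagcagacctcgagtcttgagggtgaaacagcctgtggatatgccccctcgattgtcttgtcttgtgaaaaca

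**Figure D2:**
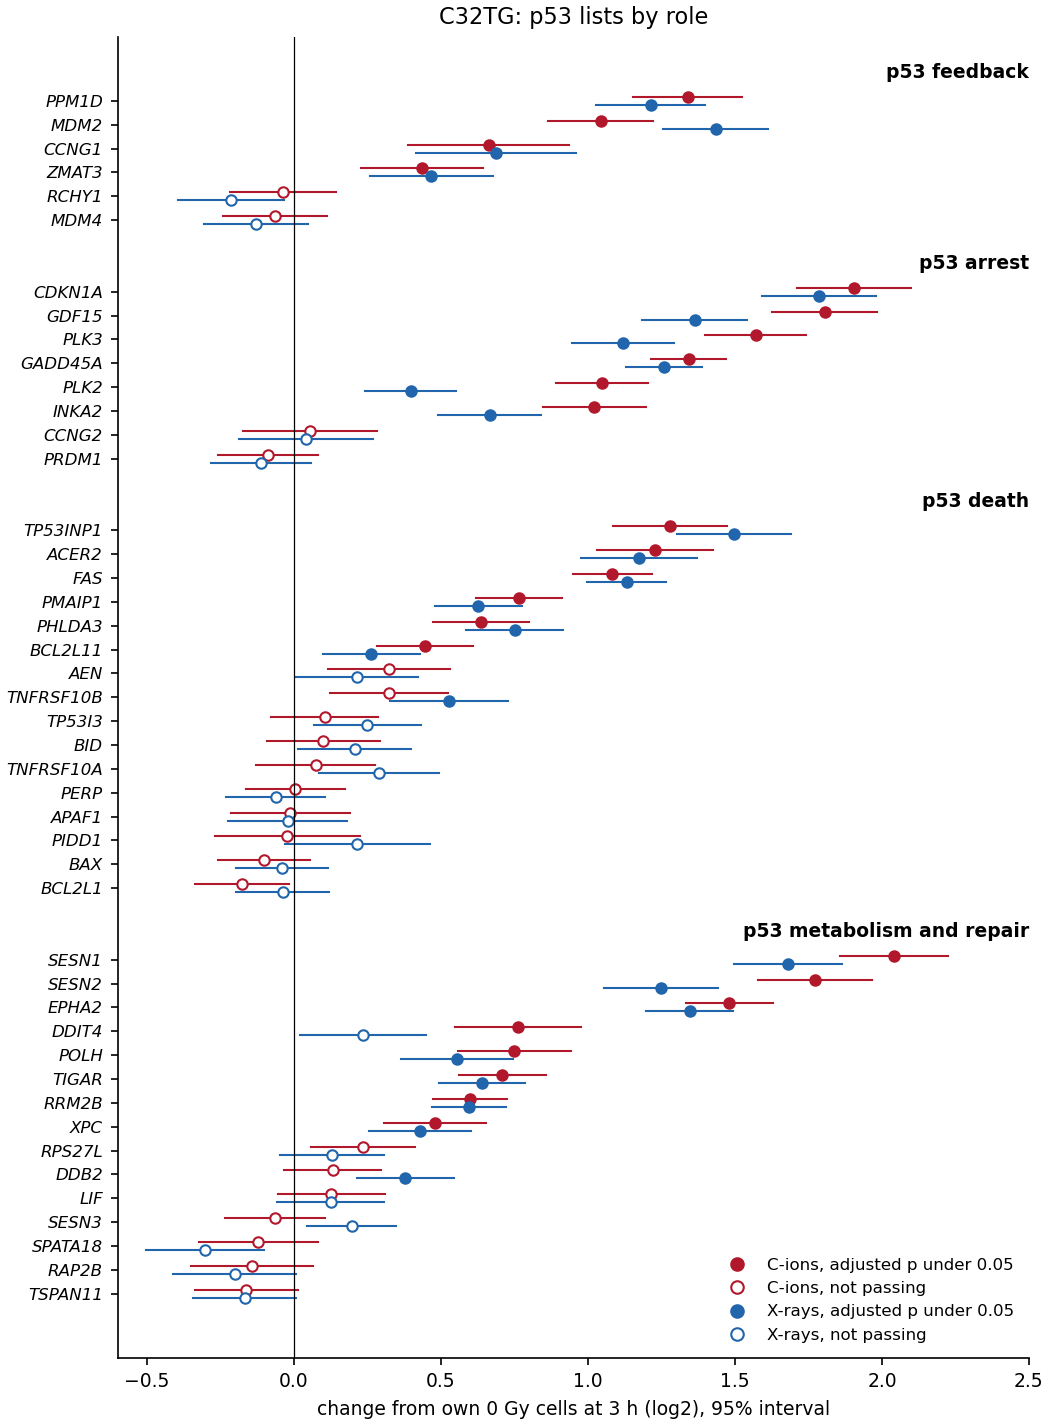
Change at 3 h from the unirradiated cells of the same beam (log2) for the 45 tested genes of the p53 lists, grouped by role. Points are the fitted changes after C-ions (red) and X-rays (blue), bars are 95% intervals, and filled points passed the test. After C-ions 24 genes passed and all of those lie right of 0; after X-rays 25 did.

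A transcript outside the lists, named after its values were seen, was MIR34AHG, the host transcript of the microRNA miR-34a. Its probe read 0.88, 0.87 and 0.99 in irradiated cells, against -0.05, -0.01 and -0.02 in unirradiated cells, a change of 0.94 (limma adjusted p = 9.25e-06). The arrays did not measure the microRNA. Its mature form, given because the gene is a known p53 target and its product silences mitotic and cell cycle messages through the seed in capitals, lies at chr1:9151735-9151756 on the minus strand (RefSeq, GRCh38.p14).
hsa-miR-34a-5p: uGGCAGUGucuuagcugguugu

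Other genes with large rises fell outside the p53 lists. ENC1, a kelch-family actin-binding protein, read 5.73, 5.73 and 5.77 in irradiated cells, against 4.24, 4.04 and 4.16 in unirradiated cells. ATF3, a transcription factor of the stress response, read 4.29, 4.23 and 4.21 in irradiated cells, against 2.79, 2.73 and 2.76 in unirradiated cells. ZNF594-DT, the divergent transcript beside ZNF594, read 4.02, 4.05 and 4.16 in irradiated cells, against 2.79, 2.60 and 2.59 in unirradiated cells. The changes were 1.60, 1.48 and 1.42, each with groups far apart. The zinc exporter gene SLC30A1 rose by 1.25, and by 0.71 on a further probe. FSD2 rose by 0.95, and E2F7, which represses E2F target genes, by 0.78. One probe of the adhesion gene MDGA2, named after its values were seen, rose by 1.49, while the brighter probe that represents the gene changed by -0.06.

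The falls were led by PFKFB4 and PIF1. PFKFB4, which sets the level of the glycolytic activator fructose bisphosphate, read 2.84, 2.84 and 2.79 in irradiated cells, against 3.76, 3.90 and 4.07 in unirradiated cells, a 2.12-fold fall (log2 change -1.09 ± 0.11, SE; limma adjusted p = 4.51e-07). Its other probe changed by -0.12, so the fall belongs to 1 of its 2 probes. PIF1, a DNA helicase that acts on telomeres and stalled forks, read 4.23, 4.35 and 4.28 in irradiated cells, against 5.27, 5.21 and 5.28 in unirradiated cells, a 1.95-fold fall (limma adjusted p = 6.24e-10). Its dimmer probe fell by 0.58 on the log2 scale.

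BORA, an activator of the mitotic kinase Aurora A, read 2.29, 2.36 and 2.29 in irradiated cells, against 3.04, 2.96 and 3.10 in unirradiated cells, a change of -0.72. ZNF793, a zinc-finger gene, changed by -0.77 and the histone acetyltransferase KAT2A by -0.69, with irradiated KAT2A values spread from 4.53 to 4.98. WDR83OS, an endoplasmic reticulum membrane protein, fell by 0.60, CCN2, a matricellular target of TGF-beta and YAP, by 0.58, and DMRT1, a transcription factor of the testis, by 0.54. FJX1, LINC00342 and GAPDHS, the sperm form of a glycolytic enzyme, fell by 0.54, 0.53 and 0.53. PYROXD2 and AHSA2P fell by 0.63 and 0.56 on their bright probes, while further probes changed by -0.02 and -0.04. The immune receptor gene PILRA and the chaperone gene HSPA1A fell by 0.56 and 0.54. They did not pass with median-centred arrays, where the adjusted p was 0.0531 and 0.0925. HSPA1A has a near-identical copy, which its probe may also read.

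Genes of G2 phase and mitosis were slightly lower in irradiated cells. Of 46 listed genes 43 were tested, 14 fell (background 2.47%) and 0 rose. The median change of the list was -0.14. In such bulk RNA, fewer cells in a phase and less RNA per cell cannot be told apart. AURKA, the kinase of the spindle poles, read 5.30, 5.26 and 5.33 in irradiated cells, against 5.68, 5.74 and 5.81 in unirradiated cells. CCNA2, the cyclin of S and G2 phase, read 4.06, 4.11 and 4.18 in irradiated cells, against 4.54, 4.47 and 4.57 in unirradiated cells. CENPA, the histone of the centromere, read 2.73, 2.83 and 2.87 in irradiated cells, against 3.40, 3.15 and 3.08 in unirradiated cells. Values did not overlap between groups in these genes, which also held for 644 of the 649 called genes and 28.2% of all genes tested. The changes, -0.44, -0.41 and -0.40, were small beside those of the p53 genes.

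The others that fell were WEE1, which holds CDK1 inactive, KIF2C, TTK, CENPE, CDC20, CKAP2, CDC25B, SPDL1, KIF18A, SGO1 and KIF14, most of them spindle and checkpoint proteins, by 0.24 to 0.43 on the log2 scale. CDK1 and the polo-like kinase PLK1 changed by 0.001 and -0.04, CCNB1 by -0.14 and the checkpoint kinase BUB1 by 0.15, and none of these passed. The count depended on scaling and on single arrays: 2 genes passed with median centring (CCNA2 and SGO1), 1 on the deposited scale (SGO1) and 0 against a minimum change of 1.2-fold. When replicates 1 and 3 of the irradiated cells were left out in turn 8 and 7 passed, and for replicates 1 and 3 of the 0 Gy cells 9 and 7. After median centring the median change of the list was -0.04.

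**Figure D3:**
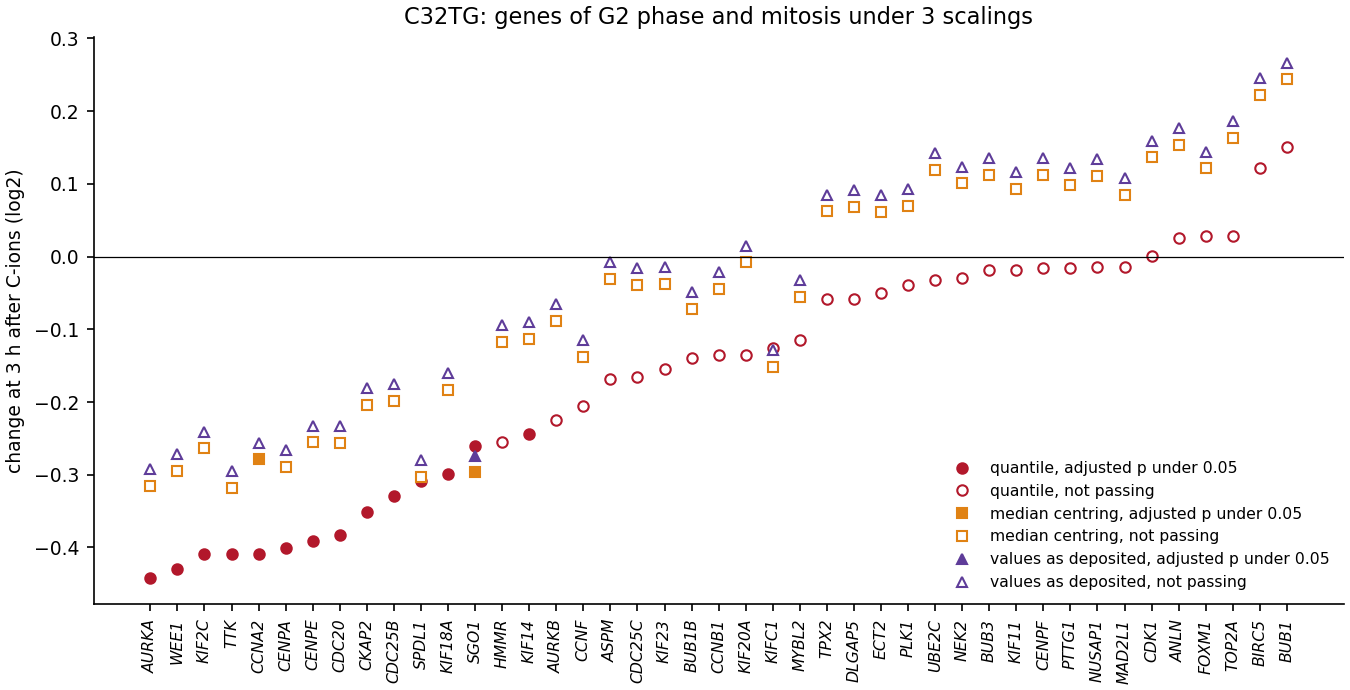
Change at 3 h after C-ions (log2) for the 43 genes of G2 phase and mitosis, ordered by the change under quantile normalization, for 3 ways of scaling the arrays. Filled symbols passed the test: 14 after quantile normalization, 2 after median centring and 1 on the deposited scale.

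The cell cycle homology region (CHR), an element of mitotic promoters bound by the DREAM complex, has the letters TTTGAA. Searched on both strands in the same windows, it was found for 5 of the 11 genes with a window among the 14 that fell, in 33.3% of their windows and 15.2% of all. Those 5 were CENPA, KIF18A, SPDL1, CDC20 and KIF14. It was also present in the window of PIF1, which is not in the list, and for 3 of the 20 risen p53 genes with a window. These are matches of letters in a window and show no binding. The windows of PIF1, CENPA, KIF18A and SPDL1 are shown with the element in capitals, beginning at -20, -18, -10 and -20 from the start (RefSeq, GRCh38.p14, 5′ to 3′ on the gene's strand); in SPDL1 it lies on the other strand.
PIF1, chr15:64825598-64825747, minus strand: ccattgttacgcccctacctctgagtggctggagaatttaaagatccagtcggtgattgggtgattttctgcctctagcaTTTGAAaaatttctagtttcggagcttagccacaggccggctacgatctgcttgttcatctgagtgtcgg
CENPA, chr2:26785956-26786105, plus strand: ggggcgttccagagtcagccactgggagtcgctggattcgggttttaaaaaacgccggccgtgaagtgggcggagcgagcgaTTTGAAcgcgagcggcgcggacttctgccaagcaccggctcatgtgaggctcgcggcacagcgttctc
KIF18A, chr11:28108107-28108256, minus strand: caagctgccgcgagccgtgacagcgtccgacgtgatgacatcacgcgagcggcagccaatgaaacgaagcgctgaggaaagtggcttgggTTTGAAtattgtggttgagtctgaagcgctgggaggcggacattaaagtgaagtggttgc
SPDL1, chr5:169583673-169583822, plus strand: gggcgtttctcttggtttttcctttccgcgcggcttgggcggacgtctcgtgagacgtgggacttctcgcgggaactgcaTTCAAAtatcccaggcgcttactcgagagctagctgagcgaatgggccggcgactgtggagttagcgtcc

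Genes of signalling and stress gave fewer calls, to be read against 2.77% of all genes that rose and 2.47% that fell. Of 23 immediate early genes tested, 5 rose and 2 fell: besides ATF3, IER5 rose by 0.75, FOSL1 by 0.35, MAFF by 0.30 and IER3 by 0.29, and KLF10 and CCN2 fell by 0.35 and 0.58, KLF10 without passing on the deposited scale. Of 18 NF-kB and chemokine genes 2 rose, the inflammatory enzyme PTGS2 by 0.71 and the inhibitor NFKBIA by 0.55. NFKBIA read 4.13, 4.10 and 3.86 in irradiated cells, against 3.48, 3.43 and 3.53 in unirradiated cells. Of 20 feedback genes of the MAPK pathway 4 rose, RGS16 by 0.56, the phosphatases DUSP5 and DUSP14 by 0.52 and 0.39, and IER3, which is also in the first list.

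In the interferon list 3 of 19 genes rose (background 2.77%), the peptide transporter TAP1, the factor IRF1 and B2M, by 0.28 to 0.34. Of 17 targets of TGF-beta and BMP, 1 rose (PMEPA1, 0.27) and 3 fell (background 2.47%), CCN2, ID3 (-0.47) and ID1 (-0.46), the ID genes being targets of BMP signalling. Both measured ID1 probes fell, the dimmer by 0.60. ID3 did not pass with median centring (limma adjusted p = 0.131). The median change of each of these lists lay between -0.07 and 0.06.

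Splicing regulators and nuclear RNAs had 6 falls among 24 genes tested (2.47% of all genes fell) and 0 rises, with a list median of -0.09. Besides PIF1, which was put in the list because it responded across lines and is no evidence for it, these were the splicing factors SRSF1 (-0.46), SRSF10 (-0.41) and SRSF4 (-0.32), the kinase CLK2 (-0.27) and NEAT1 (-0.44), the long RNA scaffold of paraspeckles. NEAT1 read 6.27, 6.21 and 6.19 in irradiated cells, against 6.81, 6.64 and 6.53 in unirradiated cells. After median centring the list's median turned to 0.03 and 1 gene, PIF1, passed, and on the deposited scale 2 genes rose and 1 fell. Heat shock genes had 2 falls among 17, HSPA1A and HSPA8, and a median of -0.12, against 0 calls and a median of 0.006 after median centring.

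DNA repair and replication genes moved little. Counts here are to be read against 2.77% of all genes that rose and 2.47% that fell. Among 18 genes of double-strand break repair BRIP1 rose by 0.27 and XRCC2 fell by 0.27. Among 13 damage sensors and checkpoint kinases only RAD9A fell, by 0.35, and among 31 genes of G1/S and replication E2F7 and the inhibitor CDKN2B (0.38) rose and CCNE1 fell by 0.28. The falls of XRCC2, RAD9A and CCNE1 did not pass with median centring. SLC3A2 was the sole fall among 19 genes of the unfolded protein and integrated stress response. It did not pass with median centring (limma adjusted p = 0.354) or on the deposited scale (0.41). Of 13 NRF2 targets and 11 histone genes 0 passed limma's test, with 2 and 2 at an unadjusted p under 0.05, against 2513 of all 12379 genes. One gene passed, upward, in each of the lists of lipid synthesis (CYP51A1 of 15), respiratory chain (NDUFA2 of 21), ribosomal proteins (RPL27 of 21) and matrix (of 18). With median centring these lists had 3, 3, 4 and 2 rises, and the NRF2 targets and histones 2 and 1.

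Melanocyte genes ranged from bright to dim in the line. Averaged over all C32TG arrays, SOX10, TYRP1 and PAX3 were at 0.94, 1.47 and -0.10. TYR, the rate-limiting enzyme of pigment synthesis, averaged 8.45 ± 0.044 in irradiated and 8.54 ± 0.047 in unirradiated cells (SD, n = 3 each), and PMEL 5.79 ± 0.045 in irradiated and 5.84 ± 0.039 in unirradiated cells, while MLANA was dim at 0.47 in irradiated and 0.45 in unirradiated cells. Of 17 melanocyte genes tested 2 fell (background 2.47%), MITF, the master regulator, by 0.30 and MC1R, the melanocortin receptor, by 0.36. Neither passed with median centring. Summed over the list, the linear level was 621 to 642 in irradiated and 662 to 703 in unirradiated cells. That sum gives most weight to bright genes such as TYR. The median log2 change of the 17 was 0.02, and 0.13 with median centring. At an unadjusted p under 0.05 in limma's test, 3 of them were higher and 2 lower. Of markers of other cells, 3 of 10 for fibroblasts, 1 of 10 for keratinocytes, 4 of 10 for leukocytes and 2 of 5 for endothelial cells passed the filters. Of these 0 passed limma's test, with 1 fibroblast marker at an unadjusted p under 0.05, against 2513 of all 12379 genes. PTPRC, COL3A1, KRT5 and CDH5 failed the filters. Those that passed included the fibroblast markers COL1A1, COL1A2 and FAP, at 1.73, 2.24 and 3.75 averaged over all C32TG arrays. The endothelial markers PECAM1 and KDR were at 3.06 and 1.76, and the keratinocyte marker PERP at 2.62. The leukocyte markers CD4, CD8A, MS4A1 and CD68 were dim, at 0.75, 0.73, 0.18 and 0.24. What these levels reflect was not tested.

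The C-ions groups at 1 h and 3 h were also compared. The labels give the 0 Gy arrays no time, so effects of irradiation, handling and time in culture cannot be told apart. The 1 h and 3 h groups share the 0 Gy arrays, so their changes are given side by side, and the times were tested against each other directly. At 1 h the p53 genes had barely moved: of 45 tested, 2 were higher than at 0 Gy (0.945% of all genes were) and 3 lower (5.01% of all genes), namely EPHA2, ACER2 and MDM4. The 2 were GADD45A and PLK2, with changes of 0.51 and 0.41 at 1 h and of 1.34 and 1.05 at 3 h. SESN1 changed by 0.08 at 1 h and 2.04 at 3 h, CDKN1A by 0.12 and 1.91, GDF15 by 0.06 and 1.80. Between 1 h and 3 h, 27 of the 45 genes rose (3.87% of all genes) and 0 fell (0.687%).

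Some genes dipped at 1 h only. DUSP6, the phosphatase that turns off ERK, read 4.81 on average at 0 Gy, 4.01 at 1 h and 4.91 at 3 h. DKK1, a secreted WNT inhibitor, read 2.49 at 0 Gy, 1.71 at 1 h and 2.70 at 3 h. For DUSP6 and DKK1 the 1 h change (-0.80 and -0.78) and the change between times (0.90 and 0.98) passed, while the change at 3 h (0.10 and 0.20) did not. EPHA2 averaged 4.16 at 0 Gy, 3.86 at 1 h and 5.64 at 3 h.

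The splicing kinases CLK1 and CLK4 followed the same course, with changes of -0.67 and -0.57 at 1 h, 0.09 and 0.03 at 3 h. So did SPRY2 and PHLDA1, both feedback genes of the ERK pathway, with -0.45 and -0.57 at 1 h, 0.04 and -0.01 at 3 h. FOSL1 and IER3 were lower at 1 h, by -0.42 and -0.39, and higher at 3 h, by 0.35 and 0.29. GADD45B, an NF-kB target, went the other way, with 0.39 at 1 h and -0.18 at 3 h, a change of -0.57 between times. PIF1 changed by -0.51 between 0 Gy and 1 h and by -0.45 between 1 h and 3 h, and PFKFB4 by -0.36 and -0.73. Scaling bears on the small dips at 1 h: those of EPHA2, SPRY2, FOSL1 and PFKFB4 did not pass after median centring, and those of MDM4, PHLDA1 and IER3 not on the deposited scale, where the median change of all probes at 1 h was higher by 0.15. Those of DUSP6, DKK1, CLK1, CLK4 and PIF1 passed under both.

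Counts for the times were sensitive to single arrays. Between times 1174 probes rose (4.25%) and 160 fell (0.579%), 1334 in all, or 4.83%, with rises at 675 of 928 on the deposited scale. The count was 800, 769, 708 and 779 when replicates 1 and 2 at 1 h and replicates 2 and 3 at 3 h were left out in turn. At 1 h, 2765 probes differed from 0 Gy (10%), 319 higher (1.15%) and 2446 lower (8.85%), and 1777 without replicate 3 at 1 h. Of 2159 after median centring 553 were higher, and of 3256 on the deposited scale 2232.

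**Figure D4:**
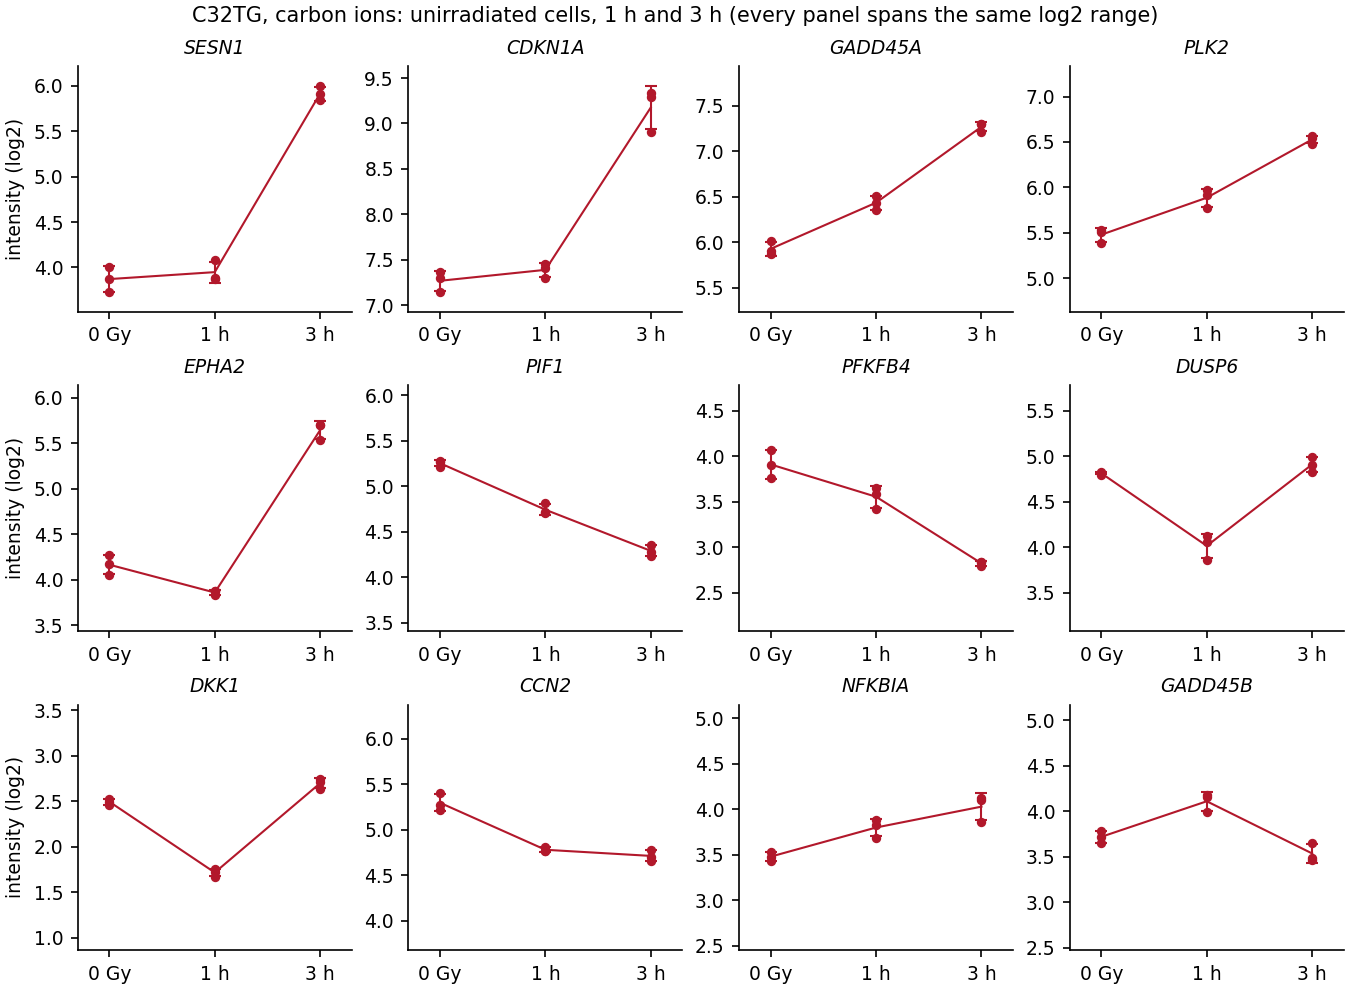
Normalized intensity (log2) of 12 genes in unirradiated C32TG cells (0 Gy) and 1 h and 3 h after 2 Gy C-ions. Points are arrays and lines join the means ± SD of 3 arrays; every panel spans the same range. SESN1 averaged 3.87, 3.95 and 5.91, and DUSP6 4.81, 4.01 and 4.91.

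Each beam had a set of arrays of its own, so effects of the beam and of the set cannot be told apart. The beams' sets were compared as the change after C-ions minus the change after X-rays, each from its own unirradiated cells. This difference passed for 32 probes (0.116%), 19 higher (0.0688%) and 13 lower (0.047%), and for 14 named genes, 10 higher (0.0808%) and 4 lower (0.0323%). After X-rays 1959 probes passed (7.09%), 350 higher (1.27%) and 1609 lower (5.82%), and 795 without replicate 1 of their unirradiated cells. Of the probes that rose after C-ions, 137 also rose after X-rays, which is 22.5% of the C-ions rises and 39.1% of the X-rays rises, and 371 fell after both, 37.5% and 23.1% of the falls.

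PLK2 differed between beams, with a change of 1.05 after C-ions and 0.40 after X-rays, a difference of 0.65 (95% interval 0.43 to 0.87; limma adjusted p = 0.0139). In the X-ray set it read 5.91, 5.96 and 6.02 in irradiated cells, against 5.60, 5.67 and 5.43 in unirradiated cells. PLK2 was the only p53 gene of 45 to differ (background 0.113%). Without replicate 3 at 3 h after C-ions, 0 probes passed as higher and 1 as lower, so PLK2 did not pass there. PIF1 changed by -0.96 after C-ions and -0.40 after X-rays (difference -0.57, 95% interval -0.76 to -0.38). In the X-ray set it read 5.15, 5.08 and 5.04 in irradiated cells, against 5.51, 5.43 and 5.52 in unirradiated cells. CCN1, a matricellular relative of CCN2, changed by -0.01 after C-ions and -0.72 after X-rays, a difference of 0.71.

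Other p53 genes had larger values after C-ions without passing. The difference was 0.52 for SESN2 (95% interval 0.25 to 0.80, limma adjusted p = 0.095), 0.44 for GDF15 (0.19 to 0.70) and 0.45 for PLK3 (0.21 to 0.70), while for CDKN1A it was 0.12 (-0.15 to 0.40). MDM2 changed by 1.04 after C-ions and 1.43 after X-rays. Over the p53 genes 24 rose after C-ions and 25 after X-rays (1.58% of all genes rose after X-rays). In the mitosis list 14 fell after C-ions, and after X-rays 2 fell (3.41% of all genes), SGO1 and SPDL1, and CDK1 rose by 0.33. Of the 43 mitosis genes 0 passed limma's test of the difference between beams, and 17 had an unadjusted p under 0.05, all of these lower after C-ions. Over all 12379 genes, 1654 had an unadjusted p under 0.05 in that test, in either direction.

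The beam difference is the least settled of these results. The unirradiated cells of the beams differed in 42.8% of probes, so the starting levels were not alike: CCNG1 averaged 5.66 in the carbon-ion set and 4.07 in the X-ray set before any irradiation. Of the 43 mitosis genes 28 were higher and 3 lower in the carbon-ion set (32.7% and 16.2% of all genes). Replicate 2 at 3 h after X-rays and replicate 1 of their unirradiated cells had low array weights, 0.235 and 0.383. What this contributes was not tested. The count of 32 became 472 after median centring and 613 on the deposited scale, 461 and 599 of them higher, and ran from 1 (without replicate 3 at 3 h after C-ions) to 160 (without replicate 3 of the X-ray set's unirradiated cells).

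Set against the other 5 melanoma lines, C32TG had fewer called probes than any of them. The median change of the p53 genes was 0.44 in C32TG, 0.47 in the uveal line and -0.06 to 0.27 in the other 4 lines, and for the arrest genes alone it was 1.34 in C32TG and 1.48 in the uveal line. For the genes of death the median was 0.21 in C32TG, against 0.29 in Colo679 and 0.24 in the uveal line, and for those of metabolism and repair 0.36 in C32TG, against 0.56 in the uveal line and 0.44 in HMV-II. In a fit of 27038 probes over 36 arrays, 782 changed in C32TG after C-ions, against 3203 to 6101 in the other lines. Its change differed from the mean change of those lines for 950 probes (3.51%), 557 higher (2.06%) and 393 lower (1.45%), with 3642 of 3975 higher after median centring. The spread between lines, with C32TG alone on 1 side, is not in this test. Of 43 p53 genes 16 changed more upward than that mean (background 2.45%) and 0 less (1.29%).

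GDF15 split the lines: it changed by 1.80 in C32TG, and by 2.24 in the uveal line, 0.10 in HMV-II, 0.09 in Colo679, 0.05 in HMV-I and 0.03 in MeWo. SESN1 changed by 2.04 in C32TG and by 0.11 to 1.84 in the other lines, and SESN2 by 1.77 in C32TG and by 0.22 to 1.5 in the others. FSD2 changed by 0.95 in C32TG and by -0.37 to 0.30 in the others (difference 1.10, limma adjusted p = 4.72e-05). CDKN1A, at 1.91, was exceeded by the uveal line at 2.17. MeWo and HMV-I had low values for most of these genes.

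PIF1 changed by -0.96 in C32TG and by -1.43 to -1.01 in the others, and C32TG's difference from their mean did not pass (0.24, limma adjusted p = 0.112). NEAT1 changed less in C32TG (-0.44) than in the others (-2.08 to -0.94), a difference of 1.04 (limma adjusted p = 0.0213). COX6C and BTF3, a respiratory chain subunit and a translation factor, changed by 0.08 and 0.20 in C32TG and by -1.56 to -0.70 in the others. PFKFB4 changed by -1.09 in C32TG, -0.95 in HMV-II and -0.44 to 0.12 elsewhere. For the mitosis list the median change was -0.14 in C32TG and -0.60 to -0.18 in the other lines, and 5 of 43 genes differed from the mean of the lines, upward (background 2.45%). The count of 950 was 126 without replicate 3 of the 0 Gy cells of C32TG, and 452, 302 and 271 without replicates 1, 2 and 3 of its irradiated cells.

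**Figure D5:**
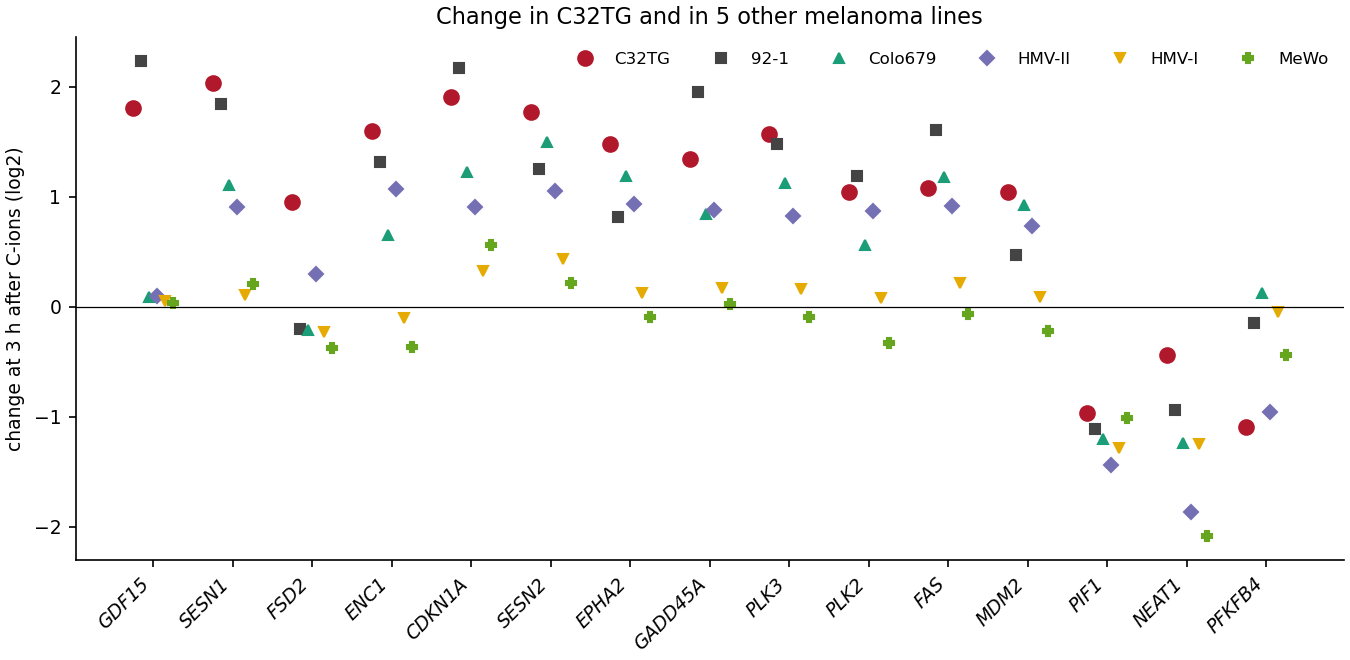
Change at 3 h after C-ions (log2) of 15 genes in C32TG (large red circles) and in the other 5 lines. GDF15 was at 1.80 in C32TG, 2.24 in the uveal line (grey squares) and 0.03 to 0.10 in the other 4 lines, and PIF1 lay between -1.43 and -0.96 in all 6.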

How the data were processed

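Total RNA was extracted with ISOGEN and RNeasy, labelled with biotin and hybridised to CodeLink arrays, per the labels' protocols. The deposited values are spot intensity on a linear scale; the sources used here do not give the software, background steps or scaling behind them. Values were transformed to log2. Since array medians ranged over 0.375 log2, limma's quantile normalization was applied over all arrays of the series, which forces equal distributions and can shift the balance of rises and falls. Probes were kept with at least 2 of 3 values in each of the 6 C32TG groups and a mean above the 40th percentile. limma (version 3.58.1, R 4.3.3; lmFit, eBayes with a trend) was fitted on the 18 C32TG arrays, with tests on both sides and Benjamini-Hochberg adjustment at 0.05 over all 27636 probes. Lines were compared in a fit of 36 arrays. The fits were checked on simulated data with independent noise for each value. That simulation held no differences in scaling or quality between arrays, so it does not bear on those.

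Of 54359 probes, 23472 had 1 gene symbol in the array annotation, 905 several and 29982 were unnamed here; 23434 matched RefSeq (GRCh38.p14). Where a gene had several kept probes (2262 genes), the brightest on average over the 18 arrays stood for it. Of 135 called genes with another kept probe, that probe had the opposite sign in 32 and was called the opposite way in 2. Named are the 15 largest rises and falls without overlap, called members of the lists, and up to 5 genes each way for other comparisons. The genes, lists and tests were chosen with earlier results of these data known. Alternatives covered scaling, filters, array weights, the replicate block and each array left out.

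Same-numbered unirradiated arrays of the beams' sets deviated together (r = 0.388, 0.173 and 0.16), a hint of pairing from the data only. Both replicate 1 arrays had low array weights, 0.331 and 0.383. The unirradiated X-ray arrays also deviated with same-numbered arrays at 1 h after C-ions (r = 0.141, 0.167 and 0.118). No label says what a number shares, and what these values reflect was not tested. With the number as a block, 11958 probes differed between the unirradiated sets, against 11830 without it.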

Additional observations from a re-analysis of the deposited data

Results flagged for a closer look

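The change of C32TG cells at 3 h after C-ions was tested against the change after X-rays and against the mean change of the other 5 lines, and the genes below are those where that test of the difference passed. Between beams, which cannot be told apart from their sets, 32 probes differed. Without replicate 3 at 3 h after C-ions, however, 0 passed as higher and 1 as lower. The difference, C-ions minus X-rays on the log2 scale, was 0.76 for the ribosomal protein gene RPL35, 0.71 for CCN1, 0.65 for PLK2, 0.65 for the proteasome subunit gene PSMD1 and 0.64 for ATP5IF1, the inhibitor of the mitochondrial ATP synthase. It was -0.61 for AHSA2P, -0.57 for PIF1, -0.47 for CDCA3, a cell division gene, and -0.44 for OSGIN1. RPL35 changed by 0.44 after C-ions and -0.32 after X-rays, opposite changes that each passed. AHSA2P changed by -0.56 after C-ions and 0.05 after X-rays, and OSGIN1 by -0.06 after C-ions and 0.38 after X-rays.

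Between lines, 950 probes differed. C32TG's change minus the mean of the other lines was 1.30 for GDF15, 1.2 for SESN1, 1.12 for COX6C, 1.10 for FSD2 and 1.09 for BTF3. It was -0.80 for PFKFB4, -0.72 for WASL, an actin regulator, -0.71 for SYNGR3, -0.70 for SLC60A1-AS1 and -0.62 for ETNPPL. WASL changed by -0.37 in C32TG, which did not pass there, and by 0.05 to 0.66 in the other lines. SYNGR3, SLC60A1-AS1 and ETNPPL were dim in C32TG, near the filter on level, and the 3 irradiated arrays spread widely for them, SYNGR3 from -0.01 to 0.96.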

How the results depend on the processing

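No named gene's called change turned its sign under the alternatives run, but the balance of rises and falls did: at 3 h after C-ions 608 and 989 became 1497 and 495 after median centring, 2153 and 446 on the deposited scale and 1802 and 1528 with array weights, at 1 h 319 and 2446 became 2232 and 1024 on the deposited scale, and between the unirradiated sets 6431 and 5399 became 5045 and 6654. The 1597 probes called at 3 h after C-ions became 2599 on the deposited scale, 3330 with array weights, 2462 with only the 6 arrays compared and 84 against a minimum change of 1.2-fold, and 712 to 1239 with 1 array left out. Calls shared with the main setting numbered 1078 of 1992 after median centring and 1007 of 2599 on the deposited scale. The 14 mitosis genes became 2, 1 and 0 after median centring, on the deposited scale and against the minimum change, and 7 to 13 with 1 array left out; these counts were added after the data were seen. The cause was not tested. The count at 1 h was 1777 to 2801 with 1 array left out, that between times 4547 with array weights and 708 to 1047 with 1 array left out, and that after X-rays 795 to 2319. The 32 probes that differed between beams became 472 after median centring, 613 on the deposited scale, 17 with quantile normalization of the 18 C32TG arrays, 10 without the filter on level, 447 with array weights and 1 to 160 with 1 array left out. The median difference between beams over all probes was 0.12 with median centring and 0.03 with quantile normalization. The 950 that differed from the other lines became 3975, 4110 and 1467 after median centring, on the deposited scale and under the replicate block, and 126 to 679 with 1 C32TG array left out, and 636 to 1397 with 1 other line left out.

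Replicate numbers did not pair the C32TG arrays at 3 h after C-ions with those at 0 Gy, where 0 of 3 pairs with the same number deviated together with r above 0.1. Of all 45 pairs 13 did, and 10 of 18 arrays correlated best with their own number, a hint from the data only. With the number as a block 1752 probes passed at 3 h after C-ions, and apart from the comparison of lines no count moved by over 1.5 times.

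Limits are the 3 arrays per group, the unknown origin of replicates, the unknown scaling, probes of 1 gene that disagree, and dim probes. Whether changes of dim probes are compressed was not tested.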

Other observations

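The unirradiated C32TG cells of the carbon-ion and X-ray sets, which share line and dose label, differed in 11830 probes, 6431 of them higher in the carbon-ion set, against 5045 of 11699 on the deposited scale. In the carbon-ion set the sterol synthesis gene MSMO1 averaged 3.13, CDK2 3.43, TACC1 3.44, the peroxide-removing enzyme gene CAT 3.36 and ZEB2 2.58, against 1.11, 1.44, 1.52, 1.46 and 0.71 in the X-ray set. Lower in the carbon-ion set were ADM, a vasodilator peptide gene, at 3.74 against 5.08, BNIP3, a mitophagy receptor, at 5.41 against 6.65, OSBP2 at 3.11 against 4.35, ACOX2 at 0.39 against 1.93 and LINC01467 at 5.01 against 6.24. ADM and BNIP3 are both known hypoxia-responsive genes, but no list of such genes was examined and a role of hypoxia was not tested. In neither did the change at 3 h after C-ions pass (-0.09 and -0.14), while after X-rays, where they started higher, they fell by 0.71 and 0.48. The replicates of MSMO1 and LINC01467 at 0 Gy spread widely in the carbon-ion set, replicate 1 at 2.64 and 4.45, against 3.37 and 3.38, and 5.34 and 5.23, on the others.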
